A study of Mus musculus with 32 samples.

Results

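Was, Coro1a, Arhgdib, Laptm5, Ptprc, Lcp1, Cd52, Cd53, Rac2 and Vav1 are genes that nearly every leukocyte uses and that most other cells do not. They were taken by symbol as a gauge of how much leukocyte RNA each library held, and all 10 were present among the 24411 genes of the table of CD11c-DTR recipients and the 24421 genes of the table of CX3CR1-DTR recipients. All 10 passed the filter on low counts in both analyses. They were described in 32 libraries, each made from sorted cells of C57BL/6J mice. The monocyte graft (3 libraries) was labelled CD45+CD11b+CD115+Ly6C+/- and received no diphtheria toxin (DTx). Its labels give blood as the organ and an Itgax-DTR/GFP transgene (line 57Lan) as the genotype, whereas the methods describe Ly6C+ monocytes from the bone marrow (BM) of Cx3cr1 GFP/+ donors that also carried CD45.1. The grafts were given to BM chimeras labelled with the same Itgax-DTR/GFP genotype, a transgene that puts the DTx receptor under the CD11c promoter, so that the recipients' own CD11c-expressing cells could be killed. These recipients, called CD11c-DTR here, got 18 ng DTx per g on 2 consecutive days before the transfer. By the methods, 9 ng per g followed every second day from day 1 to day 9 after it. Recipients taken at day 4 or 8 were harvested before the last of these doses. Macrophages labelled DAPI-CD45+CD11b+CD64+Ly6C-MHCII+ were sorted from colon at day 4 (3 libraries), day 8 (4) and day 12 (4) and from ileum at the same days (4 each). A further 6 libraries came from the colon of chimeras labelled Cx3cr1-DTR, with the same gate and toxin label, and their titles add that only GFP+ cells were taken. By the methods, recipients were 7 to 10 weeks old at chimera generation. Numbers of animals per library are not given in the sources used here. The chimeras were wild-type mice that, by the methods, were irradiated and then given BM of the DTR donors.

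The genes serve the shape, movement and signalling of blood cells. Ptprc encodes CD45, the receptor phosphatase that sets the threshold of Src family kinases, and it is the surface marker by which all macrophages here were gated. Cd52 encodes a small lipid-anchored glycoprotein and Cd53 a tetraspanin of the leukocyte surface. Laptm5 encodes a lysosomal membrane protein that lowers the surface level of antigen receptors. Was encodes WASP, which switches on the Arp2/3 complex to branch actin filaments, Coro1a encodes coronin 1A, which binds actin and Arp2/3, and Lcp1 encodes L-plastin, which bundles actin filaments. Rac2 is a small GTPase of blood cells, Vav1 a guanine nucleotide exchange factor that activates Rac proteins, and Arhgdib a GDP dissociation inhibitor that holds Rac proteins in the cytosol. Monocytes and macrophages are both leukocytes, so the presence of these transcripts does not by itself tell the 2 apart.

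Values are normalized reads, which are counts per 10000000 reads on genes of a library. Between 591817 and 5228664 reads per library fell on genes, so that 1 read was worth 1.91 to 16.9 normalized reads, and the counting floor of 3 counts stood at 5.74 to 50.7 normalized reads. Only Cd53 in 5 CX3CR1-DTR libraries and Ptprc in 1 of them were at or under that floor. Dates in the titles place each CD11c-DTR library in experiment 1, 2 or 3. The title of ileum day 8 replicate 2 carries a date a year before those of experiment 3, which was read as a slip of the year, so the values with the experiment as a block and those within experiment 3 at ileum day 8 rest on that reading. The colon day 8 library of experiment 1 (replicate 1) stood apart. The study lists 3 repeats of that group, and the numbers in their names match the titles of the other 3 libraries but carry no date, so replicate 1 was left out of the means and tests unless it is mentioned. In a bulk library, fewer leukocytes and less of these RNAs in each leukocyte cannot be told apart.

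On the mm9 build that the counts use, the genes lie on 9 chromosomes, with only Laptm5 (chr4:130469249-130492063, plus strand) and Cd52 (chr4:133649453-133650988, minus strand) on the same one. Ptprc spans chr1:139959436-140071882, Cd53 chr3:106561779-106593067, Arhgdib chr6:136872181-136890277, Coro1a chr7:133843288-133848330, Rac2 chr15:78389599-78403213 and Was chrX:7658592-7667617, all on the minus strand. Lcp1 (chr14:75530930-75630649) and Vav1 (chr17:57418523-57468659) are on the plus strand. Reads over all exons of 1 transcript model per gene were counted, and for Arhgdib and Ptprc the tables name different models with the same 3′ end.

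RefSeq start regions on GRCm38.p6, each 300 bases long, were at hand for 8 of the 10 genes (13 windows, with none for Cd52 and Rac2). They were searched on both strands for GAGGAA, the core letters of many sites of the myeloid factor PU.1, for GGGCGG, the GC box, and for TATAAA, the TATA box. GAGGAA was found in a window of 6 of the 8 genes, against 31.3% of all 27025 genes with a window. By window it was found in 6 of the 13, against 28.3% of all 32851 windows. GGGCGG was found for 4 of the 8 genes (Coro1a, Arhgdib, Lcp1, Vav1), against 38.2% of all genes, and in 5 of the 13 windows, against 35.7%. TATAAA was found for 3 genes (Arhgdib, Laptm5, Ptprc), against 15.7% of all genes, and in 3 of the 13 windows, against 13.6%. The start regions of 4 of the 6 genes with GAGGAA are shown to place the match, 5′ to 3′ on the strand of the gene, with GAGGAA or its reverse complement in capitals. They stand at chr1:138175256-138175555 (Ptprc, minus strand), chr3:106790100-106790399 (Cd53, minus), chrX:8090442-8090741 (Was, minus) and chr17:57278850-57279149 (Vav1, plus).
Ptprc: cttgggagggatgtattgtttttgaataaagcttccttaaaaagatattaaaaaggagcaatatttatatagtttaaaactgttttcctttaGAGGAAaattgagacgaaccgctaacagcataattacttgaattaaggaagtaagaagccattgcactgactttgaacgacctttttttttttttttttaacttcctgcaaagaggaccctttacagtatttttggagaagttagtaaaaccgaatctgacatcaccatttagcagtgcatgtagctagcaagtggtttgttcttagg
Cd53: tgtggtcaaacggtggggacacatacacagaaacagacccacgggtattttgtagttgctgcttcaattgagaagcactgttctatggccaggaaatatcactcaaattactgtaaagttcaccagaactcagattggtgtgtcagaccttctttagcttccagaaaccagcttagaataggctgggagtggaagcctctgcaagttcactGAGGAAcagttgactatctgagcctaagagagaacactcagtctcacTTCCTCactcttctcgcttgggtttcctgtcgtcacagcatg
Was: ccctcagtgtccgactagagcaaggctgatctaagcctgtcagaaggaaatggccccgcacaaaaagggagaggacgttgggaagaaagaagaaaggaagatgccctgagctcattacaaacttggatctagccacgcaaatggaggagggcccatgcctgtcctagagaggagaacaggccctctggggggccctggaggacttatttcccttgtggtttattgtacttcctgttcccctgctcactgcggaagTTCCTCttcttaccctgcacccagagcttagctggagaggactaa
Vav1: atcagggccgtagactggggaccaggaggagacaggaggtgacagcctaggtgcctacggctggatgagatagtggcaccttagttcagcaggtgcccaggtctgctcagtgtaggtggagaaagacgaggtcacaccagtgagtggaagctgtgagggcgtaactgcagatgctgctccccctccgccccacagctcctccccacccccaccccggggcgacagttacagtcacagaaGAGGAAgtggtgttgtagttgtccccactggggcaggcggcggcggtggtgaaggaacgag
The match begins at base 93 of the window in Ptprc, at bases 212 and 259 in Cd53, at base 256 in Was and at base 240 in Vav1. A match in these letters is a description of the sequence and not of binding.

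Reads on the 10 genes together made up 1.29% ± 0.0690 (SD, n = 3) of all reads on genes in the graft. In the colon they made up 0.0507% ± 0.0205 (n = 3) at day 4, 0.0563% ± 0.0296 (n = 3) at day 8 and 0.0587% ± 0.0396 (n = 4) at day 12. The ileum stood between, with 0.236% ± 0.123 at day 4, 0.280% ± 0.140 at day 8 and 0.303% ± 0.170 at day 12 (n = 4 each). Every graft library was above every engrafted library, the highest of which was ileum day 12 replicate 1 at 0.555%. The colon day 8 library left out held 0.349%, which lies among the ileal values, while the highest other colonic library stood at 0.118%. CX3CR1-DTR colon held 0.0382% ± 0.0166 (n = 6), and its libraries overlapped those of CD11c-DTR colon.

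**Figure D1:**
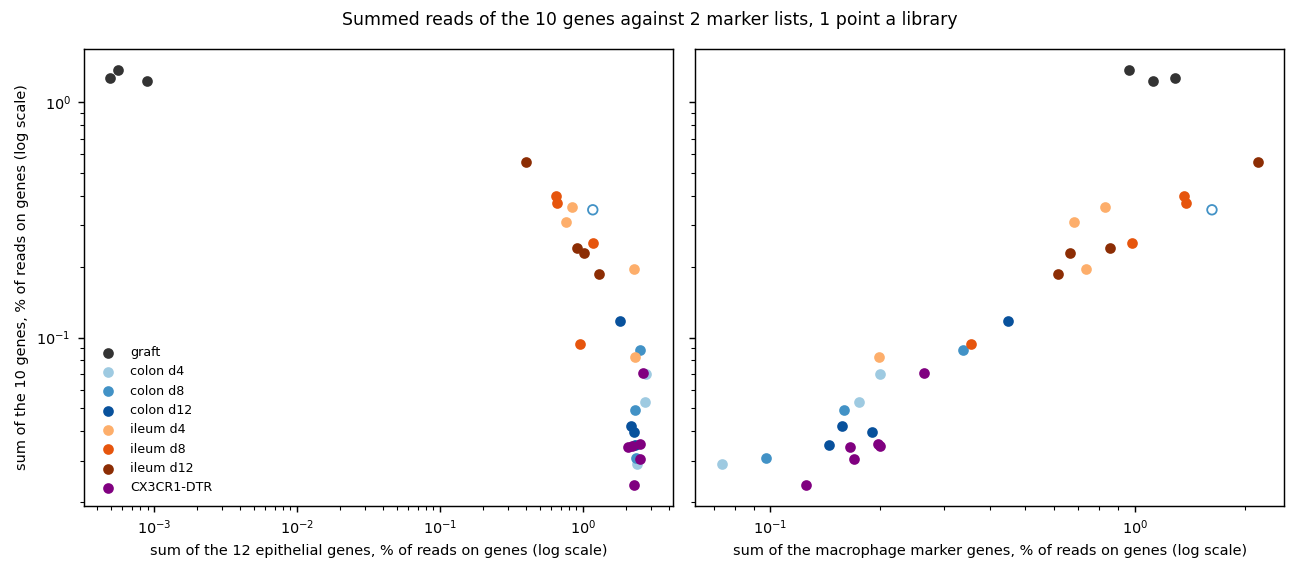
Summed reads of the 10 leukocyte genes (vertical axis, percent of reads on genes, log scale) against the summed epithelial markers (left) and macrophage markers (right, both as percent of reads on genes on log scales), with 1 point per library and the colon day 8 library left out drawn as an open circle. The 3 graft libraries sit apart at 1.24 to 1.37% with almost no epithelial reads, and the engrafted libraries with more macrophage reads also hold more of the 10 genes.

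Epithelial markers were lowest in the graft. The ranges of colon and ileum overlapped over all days together. With colon day 8 replicate 1 left out, every colonic library was above every ileal one at each single day. In that replicate the sum of the 10 genes was 0.298 of the epithelial sum. This ratio was 0.0131 to 0.0356 in the other colon day 8 libraries and 0.0978 to 0.617 in ileum day 8. The 12 epithelial markers (among them Epcam, Krt8, Vil1 and Lgals4) summed to 49.5 to 89.9 normalized reads in the graft, where Krt20, Vil1 and Cldn3 had none. They summed to 181523 to 277163 in the colon, 39712 to 229572 in the ileum and 205217 to 264822 in CX3CR1-DTR colon, with each of the 12 above the floor in at least 1 library of each of these groups. By day, the colon gave 237635 to 277163 at day 4, 232428 to 249569 at day 8 and 181523 to 231898 at day 12. The ileum gave 76616 to 229572, 64624 to 117588 and 39712 to 129952 at the same days. In ileum day 4 the sum of the leukocyte genes was 0.0823 and 0.196% in the 2 libraries of experiment 1, against 0.310 and 0.358% in the 2 of experiment 2. From ileum to colon, none of the 12 epithelial markers was called at day 4. At day 8, 8 were higher and 1 lower, and at day 12 10 were higher. Their median log2 fold changes were 0.69, 1.73 and 1.51 at days 4, 8 and 12, against -0.04, -0.06 and -0.02 for all genes. The 6 fibroblast markers were at 0 in all graft libraries. They summed to 792.9 to 6833 normalized reads in the colon and 330.2 to 7772 in the ileum. None of these 6 was called from ileum to colon at any day (median log2 fold changes 0.53, -0.44 and -0.30 at days 4, 8 and 12). The part of these other cells' RNA in the levels of the 10 genes was not tested.

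Among the actin regulators, Coro1a counted 27105, 27810 and 37945 normalized reads in the 3 graft libraries. It counted 329, 1199 and 846 in colon day 4, 1378, 769 and 342 in colon day 8, and 541, 1094, 369 and 211 in colon day 12. The ileum gave 4341, 1101, 3464 and 7231 at day 4, 6450, 5595, 4477 and 2099 at day 8, and 5891, 3404, 2767 and 2451 at day 12. No engrafted library reached the graft, and in the ileum only replicate 2 of day 4, at 1101, lay within the range of the colon. The log2 fold change of Coro1a from the graft was -5.14 ± 0.71 (SE) in colon day 4 (edgeR adjusted p = 1.5e-06) and -2.96 ± 0.57 in ileum day 4 (edgeR adjusted p = 0.00013).

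Was counted 3346, 3539 and 2447 normalized reads in the graft, 48.7 to 178.3 in the 10 colonic libraries (median 90.1) and 84.5 to 806.8 in the 12 ileal ones (median 472). The highest ileal library thus stayed below the lowest graft library. Lcp1 counted 9727, 9202 and 9060 in the graft, 486.5 to 1892 in the colon (median 719) and 750.7 to 7002 in the ileum (median 2664). Lcp1 was the actin gene with the smallest loss, with log2 fold changes of -3.36 ± 0.61 in colon day 4 (edgeR adjusted p = 5.1e-05) and -1.66 ± 0.52 in ileum day 4 (edgeR adjusted p = 0.00868). The 3 graft libraries differed little for Lcp1, with an SD of 351 around a mean of 9330.

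Of Arhgdib, Rac2 and Vav1, the genes around Rac signalling, Arhgdib had the largest loss in the 3 colonic groups and the 3 ileal groups of CD11c-DTR recipients. It counted 22023, 20905 and 18705 normalized reads in the graft. Colon day 4 gave 195, 558 and 421, colon day 8 508, 296 and 229.5, and colon day 12 274, 481, 237 and 208. Ileum day 4 gave 2062, 635, 710 and 2708, ileum day 8 3008, 1879, 1593 and 817, and ileum day 12 3445, 1292, 1278 and 1416. Arhgdib was the only one of the 10 genes for which every ileal library (lowest 635.3) was above every colonic one (highest 558.4), a pattern that 0.241% of the 12869 genes tested showed. Its log2 fold change from the graft was -5.57 ± 0.62 in colon day 4 (edgeR adjusted p = 6.01e-08) and -3.78 ± 0.50 in ileum day 4 (edgeR adjusted p = 1.14e-06).

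Rac2 was steady over the graft at 9429, 10354 and 9613 normalized reads and counted 133.9 to 581.4 in the colon (median 293.9) and 422.4 to 2649 in the ileum (median 1335). Vav1 counted 1761, 1937 and 3021 in the graft, 126 to 417.6 in the colon (median 181) and 270.7 to 1561 in the ileum (median 1005). For Vav1 the highest ileal library was close to the lowest graft library, and its log2 fold change in ileum day 4 was -1.54 ± 0.44 (edgeR adjusted p = 0.00462) against -2.97 ± 0.52 for Rac2 (edgeR adjusted p = 4.16e-05). Whether these 2 changes differ was not tested.

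At the cell surface, Ptprc counted 7574, 8636 and 5564 normalized reads in the graft. Colon day 4 gave 249, 410 and 327, colon day 8 634, 339 and 258, and colon day 12 427, 1639, 371 and 255. Ileum day 4 gave 2812, 895, 1149 and 3103, ileum day 8 2779, 960, 1477 and 492, and ileum day 12 5058, 1897, 1704 and 2031. Although every one of these macrophage libraries was sorted on CD45, each held less Ptprc than the lowest graft library. The colon day 8 library left out had 3721, which is above 11 of the 12 ileal libraries. The log2 fold change of Ptprc from the graft was -4.32 ± 0.69 in colon day 4 (edgeR adjusted p = 1.06e-05) and -1.89 ± 0.56 in ileum day 4 (edgeR adjusted p = 0.00629).

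Cd52 counted 22546, 21641 and 27589 normalized reads in the graft, 430.8 to 2553 in the colon (median 1013) and 1375 to 16732 in the ileum (median 6865). Laptm5, the lysosomal member, counted 18849, 22337 and 22335 in the graft, 552.5 to 2564 in the colon (median 1026) and 1437 to 11477 in the ileum (median 5456). Both kept every graft library above every engrafted one.

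Cd53 was the exception. It counted 1287, 354.5 and 489.5 normalized reads in the graft, so that replicate 1 stood apart from the other 2. Colon day 4 gave 117, 113 and 97.2, colon day 8 204, 82.8 and 95.6, and colon day 12 45.6, 396, 163 and 123.1. Ileum day 4 gave 849, 271, 169 and 868, ileum day 8 723, 214, 372.5 and 133, and ileum day 12 1201, 529.5, 588 and 887. The graft range overlapped the ileal range throughout and reached into the colonic one through replicate 2 of colon day 12. Cd53 fell from the graft to colon day 4 by 2.54 ± 0.66 on the log2 scale (edgeR adjusted p = 0.00217). In the ileum its log2 fold change was -0.40 ± 0.58 at day 4, -0.85 ± 0.57 at day 8 and 0.37 ± 0.57 at day 12, none of which passed the test (edgeR adjusted p = 0.577, 0.2155 and 0.6045), and without graft replicate 1 the day 4 value was 0.29.

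**Figure D2:**
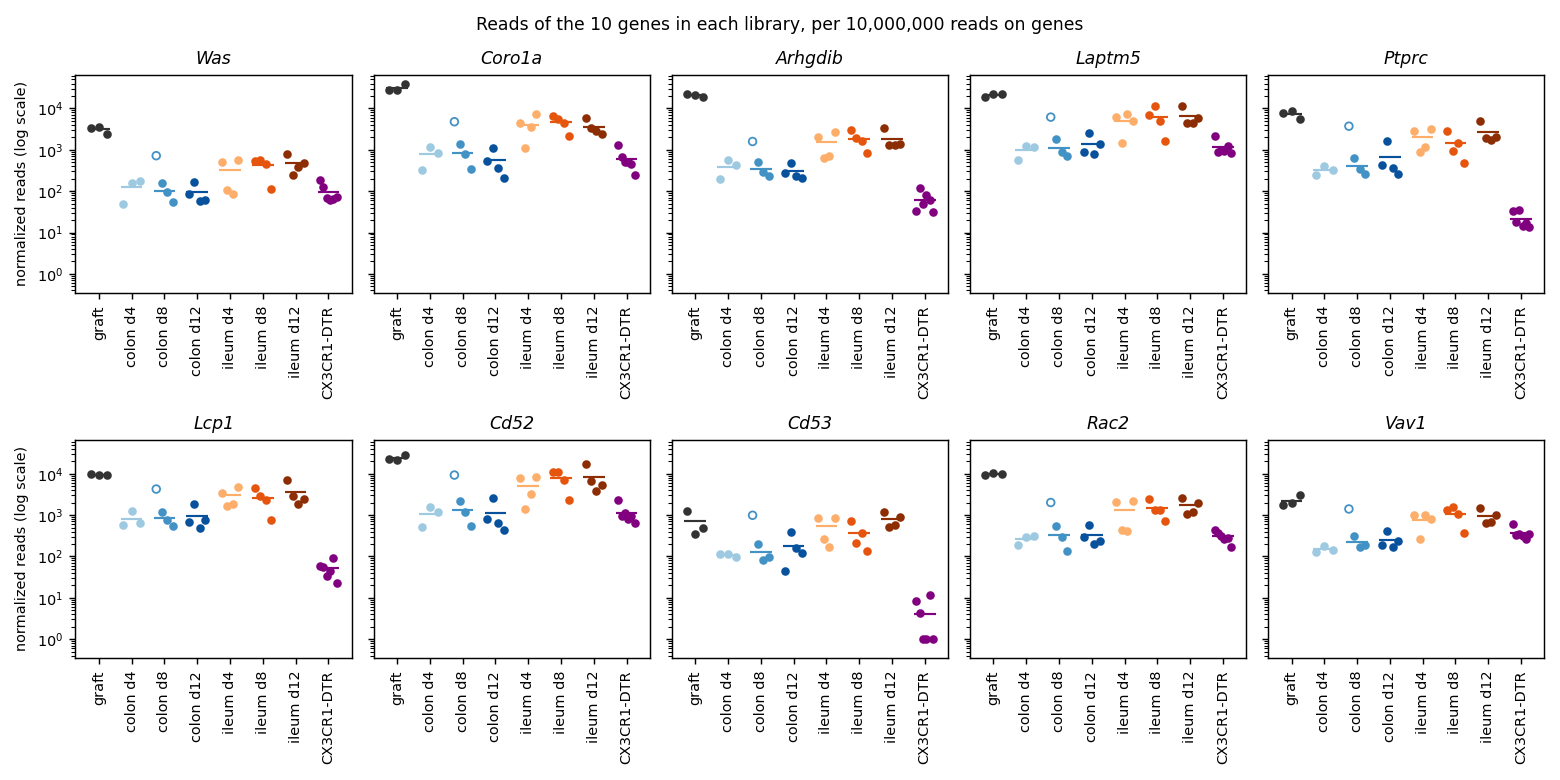
Normalized reads (log axis) of each of the 10 genes, with 1 point per library by group, horizontal lines at the group means, the colon day 8 library left out of the means as an open circle, and counts of 0 drawn at 1. The graft stands highest for every gene but Cd53, whose graft libraries (354.5 to 1287) share the range of the ileum.

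Set against the graft, whose 3 libraries are shared by all the comparisons with it, all 10 genes fell in the colon. At day 4 the log2 fold changes ran from -5.57 (Arhgdib) to -2.54 (Cd53), with a median of -4.31, while the median over all 12869 genes tested was 0.26 and 23.2% of them were lower at an adjusted p under 0.05 (edgeR quasi-likelihood test, Benjamini-Hochberg). At day 8 all 10 were lower with a median of -4.11 (22.6% of all genes lower), while with all 4 colon day 8 libraries the median was -2.76 and Cd53 was not called (edgeR adjusted p = 0.3031). At day 12 all 10 were lower with a median of -4.07 (23.7% lower). For 9 of the 10 the 3 graft libraries stood above all 10 colonic libraries, as 26.3% of the genes tested did, and Cd53 was the one that overlapped. Without graft replicate 1, Cd53 was the gene lost at day 12, with a log2 fold change of -1.17 (edgeR adjusted p = 0.107). At days 4 and 12, within each experiment that had both groups, all 10 genes were lower in the colon than in the graft. The medians were -4.44 and -4.12 at day 4 and -3.61 to -4.92 at day 12 on the log2(normalized reads + 50) scale. Day 8 was not compared in this way.

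In the ileum 9 of the 10 genes were lower than in the graft at day 4 (median -2.15, 19.7% of all genes lower), 7 at day 8 (18.9% lower) and 6 at day 12 (median -1.44, 19.4% lower). For 9 of the 10 every graft library stood above all 12 ileal libraries (16.8% of all genes), again all but Cd53. Cd53 was also the gene not called at day 4. Within experiments 1 and 3, Cd53 was higher in ileum day 12 than in the graft (0.10 and 1.21 on the log2(normalized reads + 50) scale). In experiment 2 it was lower (-0.50). At day 4 the median was -2.94 with the ileal libraries of experiment 1 alone and -1.86 with those of experiment 2 alone, where Ptprc, Lcp1 and Cd52 were lost (edgeR adjusted p = 0.0889, 0.103 and 0.0724). At day 8 Cd52 (edgeR adjusted p = 0.0528), Cd53 and Vav1 (edgeR adjusted p = 0.0666) were not called, and at day 12 Ptprc (edgeR adjusted p = 0.0589), Lcp1 (edgeR adjusted p = 0.0515), Cd52 (edgeR adjusted p = 0.0753) and Cd53. DESeq2 called 8 genes at both of these days and limma 9. With the experiment as a block, edgeR called 9 at day 8, where Cd53 (adjusted p = 0.0174) and Cd52 (0.0289) were gained, and 9 at day 12, where Ptprc (0.0086), Lcp1 (0.026) and Cd52 (0.0314) were. The day 12 count leaned on replicate 1 of that group: without it Ptprc (log2 fold change -1.89, edgeR adjusted p = 0.00602), Lcp1 (-1.89, 0.0025) and Cd52 (-2.12, 0.00809) were called too. Leaving out any of graft replicate 3 and ileum day 12 replicates 2, 3 and 4 took both Laptm5 and Vav1 out of the day 12 calls, leaving out graft replicate 2 took Laptm5, and the counts ran from 4 to 9. Ptprc was gained at day 12 without colon day 12 replicate 2, and Lcp1 without that library, colon day 4 replicate 2, ileum day 4 replicate 2 or 4, or ileum day 8 replicate 1 or 4. At day 8 the counts ran from 6 to 9. Laptm5 was lost without ileum day 8 replicate 4, Vav1 was gained without ileum day 4 replicate 2 or ileum day 8 replicate 2, and Cd52 without either of these, colon day 8 replicate 4, colon day 12 replicate 2 or ileum day 12 replicate 1 or 3.

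**Figure D3:**
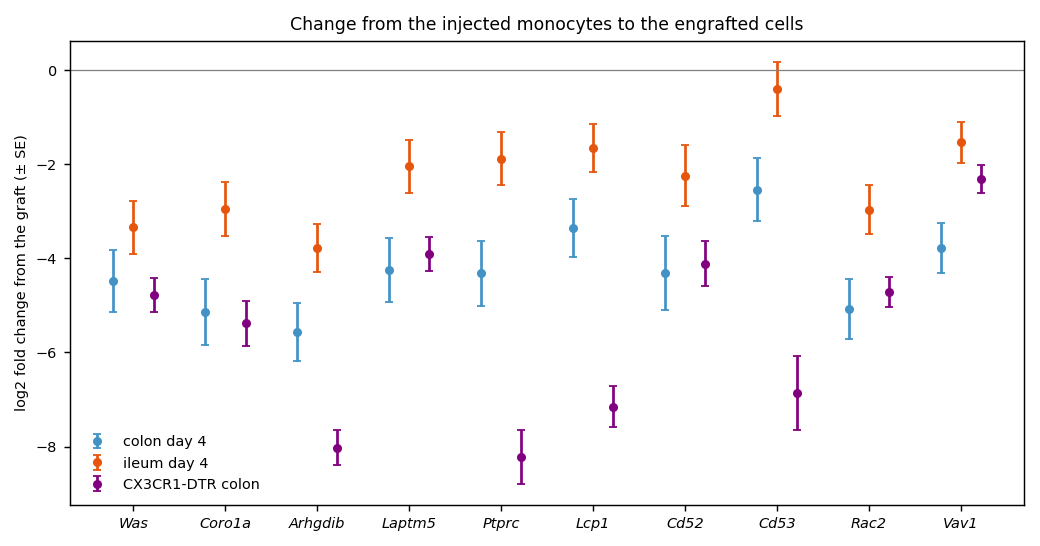
Fitted log2 fold change from the graft (vertical axis) for each of the 10 genes in colon day 4, ileum day 4 and CX3CR1-DTR colon, with bars of 1 SE. Ileum day 4 lies nearest to 0 for every gene, from -3.78 (Arhgdib) to -0.40 (Cd53). The CX3CR1-DTR values of Arhgdib, Ptprc, Lcp1 and Cd53 lie furthest from 0, from -6.86 to -8.22. Over all genes the change from the graft to CX3CR1-DTR colon differed by GC content.

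The colon held less of the 10 genes than the ileum at each day. At day 12 all 10 fell from ileum to colon, over a narrow range from -1.99 ± 0.42 (Vav1) to -2.98 ± 0.64 (Cd52), with a median of -2.38 and an SD over the genes of 0.34, where 16.9% of all genes were lower and their median was -0.02. The day 12 libraries of the 2 segments did not overlap for 9 of the 10 (14.4% of all genes), the exception being Lcp1 through colon replicate 2 at 1892. At day 8 the count was 9 of 10 (median -2.23, 17.4% of all genes lower), with Cd53 at -1.52 ± 0.63 (edgeR adjusted p = 0.066) not called, and 5 of the 10 did not overlap (15.5%). With the experiment as a block all 10 were called at day 8 (Cd53 adjusted p = 0.0247), and without colon day 8 replicate 4 the count was 5, since Was, Ptprc, Lcp1 and Cd52 were lost. Leaving out colon day 8 replicate 3 or ileum day 8 replicate 1 also took Ptprc and Lcp1 out, and leaving out ileum day 8 replicate 2 took Lcp1, while Cd53 was gained without colon day 12 replicate 1 or 2 or ileum day 8 replicate 4. With all 4 colon day 8 libraries in the fit none of the 10 was called at an adjusted p under 0.05, and the log2 fold change of Ptprc was -0.03.

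At day 4 the sizes were alike, from -1.14 ± 0.60 (Was) to -2.43 ± 0.62 (Ptprc) with a median of -2.12, but only 4 genes were called, against 2.16% of all genes. These were Vav1 (-2.25 ± 0.49, edgeR adjusted p = 0.0331), Ptprc (edgeR adjusted p = 0.0461), Rac2 (-2.10 ± 0.56, edgeR adjusted p = 0.0477) and Laptm5 (-2.21 ± 0.61, edgeR adjusted p = 0.0498). For 7 of the 10 the day 4 libraries did not overlap (7.09% of all genes), and at an unadjusted p under 0.05 the count was 9, all but Was. DESeq2 called 9, limma 5 and the fit with the experiment as a block 7, with Arhgdib (adjusted p = 0.0224), Coro1a (0.0429) and Cd53 (0.00825) gained. The ileum day 4 libraries of the 2 experiments differed, and the count was 10 with those of experiment 2 alone and 0 with those of experiment 1 alone, where Was was 0.29. Leaving out any 1 library of the fit gave 0 to 9 calls. The count was 0 without any 1 of the 3 colon day 4 libraries or ileum day 4 replicate 1 or 4, and 9 without ileum day 4 replicate 2, 7 without ileum day 12 replicate 1, and 6 without colon day 12 replicate 2 or ileum day 8 replicate 4. It was 1 without any 1 graft library, colon day 8 replicate 3, ileum day 8 replicate 3 or ileum day 12 replicate 2 or 4, and 2 without colon day 12 replicate 1, 3 or 4.

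Within single experiments all 10 genes were lower in the colon than in the ileum in each of the 6 comparisons that could be made, with medians from -1.71 to -2.73 on the log2(normalized reads + 50) scale. Each of these comparisons held 1 or 2 libraries a side. At day 4 only experiment 2 had both segments, so the ileal day 4 libraries of experiment 1 had no colonic library to be set against. Markers of other cells also differed between the segments. The 8 T cell markers summed to 510.3 to 1284 normalized reads in the ileum of days 8 and 12 and to 84.5 to 1655 at day 4, where 84.5 belongs to experiment 1, against 47.2 to 117.8 in the colon and 4.09 to 24.6 in the graft, where Cd3d, Cd3e and Cd3g had no read. The 7 B cell markers summed to 743.8 to 2570 in the ileum of days 8 and 12 to 93.8 to 1697 in the ileum of day 4, to 47.3 to 259 in the colon and to 355.4 to 408.5 in the graft, with Pax5 at 0 in all 12 ileal libraries and the graft. The 6 endothelial markers summed to 353.7 to 9855 in the ileum of day 4, 4323 to 9659 at day 8 and 2822 to 7680 at day 12. In the colon they summed to 644.1 to 1523, 717.2 to 1440 and 422.8 to 1779 at the same days. All 6 were lower in the colon at days 8 and 12 (median log2 fold changes -2.72 and -2.13), where 17.4 and 16.9% of all genes were lower. At day 4 none of the 6 was called. T and B cells use most of the 10 genes as well. The gate was on CD11b and CD64, with CD45.1 and GFP by the methods, and the ileal libraries still held the T and B cell marker reads given above. The part of T and B cells in the difference between the segments was not tested.

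Between days within a segment none of the 10 genes was called, and neither was any by DESeq2 or limma. From colon day 4 to day 8 the log2 fold changes ran from -0.39 to 0.55 (median 0.15), and from day 8 to day 12 from -0.60 to 0.69 (median 0.07). With all 4 colon day 8 libraries these medians were 1.5 and -1.21. In the ileum they ran from -0.45 to 0.75 (median 0.37) and from -0.31 to 1.22 (median 0.19). The first of these ileal medians was 0.87 with the day 4 libraries of experiment 1 alone and -0.13 with those of experiment 2 alone. The largest was Cd53 from ileum day 8 to day 12, at 1.22 ± 0.54 (edgeR adjusted p = 0.752), and it was the only one of the 40 gene-by-interval tests with an unadjusted p under 0.05 (0.0329). Over all genes, 0% passed in both colonic intervals and in the later ileal one, and 4.81% from ileum day 4 to day 8. A test of whether the segments diverged from day 4 to day 12 called none of the 10 (median -0.34, range -1.35 to 0.33) and 0% of all genes, with no gene of the 10 at an unadjusted p under 0.05. The SEs of these differences were 0.40 to 0.88.

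Since the sum of the 10 genes also depends on how much non-leukocyte RNA a library held, it was set against the summed macrophage markers (Cd68, Csf1r, Fcgr1, Mertk, C1qa, C1qb, C1qc, Lyz2, Adgre1, Cx3cr1 and Itgam) of the same library. That ratio was 1.17 ± 0.22 in the graft (n = 3). In the 10 colonic libraries it was 0.292 ± 0.0541 and in the 12 ileal libraries 0.320 ± 0.0734, so the segments overlapped (0.208 to 0.393 and 0.256 to 0.454). The colon day 8 library left out, whose sum of the 10 genes was far above the other colonic ones, had a ratio of 0.214. The ratio shares its macrophage genes with the change under study, because C1qa, C1qb and C1qc are genes that monocytes raise on becoming macrophages, and it was not tested.

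The 10 genes did not keep their proportions. Arhgdib made up 16.0% ± 2.1 (n = 3) of the summed reads of the 10 in the graft and 6.44% ± 1.22 (n = 10) in the colon and 6.48% ± 1.37 (n = 12) in the ileum. Coro1a went from 23.9% ± 3.4 to 12.5% ± 3.7 in the colon and 15.6% ± 3.6 in the ileum. Lcp1 went the other way, from 7.25% ± 0.62 to 16.2% ± 2.6 in the colon and 11.4% ± 3.4 in the ileum. For Was the 3 shares were 2.43% ± 0.56, 1.93% ± 0.54 and 1.45% ± 0.44. For Arhgdib no engrafted library shared the range of the graft, and for Lcp1 the lowest ileal library (7.73%) did.

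Across the 22 engrafted CD11c-DTR libraries the 10 genes varied together from library to library. Pearson's r of log2(normalized reads + 50) over the 45 pairs of genes had a median of 0.90, from 0.75 (Coro1a with Cd53) to 0.98 (Laptm5 with Vav1). The libraries fall into 2 segments and share depth and sort, and within the 10 colonic or the 12 ileal libraries the median was 0.77 each, with Coro1a and Cd53 lowest in the colon at 0.34. Of 7563 other genes whose mean over these libraries reached 200 normalized reads, those most like the mean of the 10 were Itgb2 (r = 0.988), the beta chain of the leukocyte integrins, Tifab (0.986), Lcp2 (0.984), which encodes the adaptor SLP-76, Fyb (0.983), which encodes the adaptor ADAP, and Limd2 (0.983). Itgb2, Lcp2 and Fyb are also on the list of other pan-leukocyte genes described next. Itgb2 counted 7191 ± 1445 normalized reads in the graft, 196 ± 107 in the colon (n = 10) and 1081 ± 610 in the ileum (n = 12).

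A list of 40 other pan-leukocyte genes was set beside the 10. From graft to colon day 4 38 of the 40 were lower (median -3.92), from graft to ileum day 4 36 (median -2.19), and from ileum to colon 11 at day 4, 37 at day 8 and 40 at day 12 (median -2.27). The lowest values from graft to colon day 4 were those of Myo1g, an unconventional myosin of blood cells (-5.79 ± 0.70), Selplg, the selectin ligand PSGL-1 (-5.79 ± 0.64), and Lsp1, an actin-binding protein (-5.75 ± 0.52). At the other end stood Srgn, the granule proteoglycan serglycin (-2.08 ± 0.55, edgeR adjusted p = 0.0025), Ptprcap (-1.74 ± 0.97, edgeR adjusted p = 0.127) and Plek, pleckstrin (-1.16 ± 0.64, edgeR adjusted p = 0.118). The last 2 were those not called. Ptprcap, which encodes a CD45-associated protein of lymphocytes, also had the lowest value of the list from ileum to colon at day 12 (-4.27 ± 0.84). It counted only 4.34 to 31.7 normalized reads in the colon, near the counting floor, so the sizes of both its values rest on few reads.

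The relatives of the 10 genes that cells outside the blood use behaved differently. Of 11 such paralogs 10 were tested and Vav2 had too few reads. From graft to colon day 4 Pls1 and Pls3, the plastins of other tissues, Laptm4b and Wasl, the N-WASP gene, rose, and Coro1b, Arhgdia, Rac1 and Vav3 fell by 0.62 to 1.80 on the log2 scale, while Coro1c (-0.22) and Laptm4a (0.08) were not called. Pls1 was at or under the floor in the whole graft and counted at least 79.7-fold higher in colon day 12. From ileum to colon at day 12, where all 10 leukocyte genes fell, none of the paralogs did, and Wasl (0.88 ± 0.25) and Laptm4b (0.91 ± 0.29) rose. The 10 general actin genes had a median of -1.17 from graft to colon day 4, beside -4.31 for the 10 leukocyte genes. This difference was not tested. Cfl1, Arpc2, Arpc3, Arpc1b, Capzb and Tmsb4x fell from graft to colon day 4 (-1.09 to -2.98), Actb (-0.45), Actg1 (-0.62), Pfn1 (-0.63) and Cap1 (0.34) were not called, and from ileum to colon at day 12 Tmsb4x alone of the 10 was lower (-1.64 ± 0.43).

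In CX3CR1-DTR colon all 10 genes were lower than in the graft, with log2 fold changes from -2.32 ± 0.30 (Vav1) to -8.22 ± 0.57 (Ptprc) and a median of -5.08, where 35.9% of the 11751 genes tested were lower. The graft and these 6 libraries did not overlap for any of the 10 (39.4% of all genes). Over all genes the change from the graft to these libraries differed by GC content, as given below. Set against colon day 12 of the CD11c-DTR recipients, 4 of the 10 were lower, a share near the 35.5% of all genes that were, so the count is not a result about the 10. Ptprc (-5.08 ± 0.53, edgeR adjusted p = 1.55e-06), Cd53 (-5.18 ± 0.80, edgeR adjusted p = 5.9e-05), Lcp1 (-4.16 ± 0.39, edgeR adjusted p = 5.97e-07) and Arhgdib (-2.22 ± 0.32, edgeR adjusted p = 3.16e-05) were the 4. The value of Cd53 depends on the prior count, since 5 of the 6 CX3CR1-DTR libraries were at or under the floor, and it ran from -6.28 to -1.90 over the alternatives. The other 6 had values from -0.31 ± 0.34 (Laptm5) to 0.52 ± 0.30 (Vav1) and were not called. Without colon day 12 replicate 2, Vav1 was called as higher (0.83, edgeR adjusted p = 0.0242).

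For these 4 genes each CX3CR1-DTR library lay below each library of colon day 12 (30.9% of all genes) and of CD11c-DTR colon as a whole (27.7%). Ptprc counted 32.7, 17.6, 34.1, 14.2, 16.6 and 13.7 normalized reads in the 6 CX3CR1-DTR libraries and at least 249 in every library of CD11c-DTR colon. Lcp1 counted 57.2, 57.1, 34.1, 45.6, 92.5 and 22.8 against at least 486.5, and Arhgdib 31.9 to 118.6 against at least 194.7. Cd53 counted 1, 1, 0, 0 and 0 raw reads in 5 of the 6 libraries, which is at or under the floor, and 11.9 normalized reads in the other. Coro1a, in contrast, counted 1283, 668, 518, 504, 455 and 250, within the range of CD11c-DTR colon. Cd52 (646.2 to 2313), Laptm5 (814.6 to 2116), Rac2 (172.9 to 441.3), Vav1 (270.3 to 621) and Was (62.7 to 187.9) overlapped that range too. Sorted as CD45+ cells, these libraries had 185.5 ± 43.8 reads on the 10 genes for every read of Ptprc, against 12.7 ± 3.25 in CD11c-DTR colon (n = 10) and 18.5 ± 5.31 in the graft (n = 3).

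The 4 genes that were lower have a GC content of 37.3% (Cd53), 41.9% (Ptprc), 47.4% (Lcp1) and 49.1% (Arhgdib), and the other 6 lie above them, from 51.0% (Cd52) over 52.6% (Vav1), 52.8% (Rac2), 55.8% (Was) and 56.0% (Laptm5) to 58.0% (Coro1a). Over all genes with a transcript sequence (90.4% of those tested), the median log2 fold change from colon day 12 to CX3CR1-DTR colon was -2.93 in the fifth of lowest GC, then -0.94, -0.02 and 0.46, and 0.72 in the fifth of highest GC. In the comparison of graft with colon day 4, which lies within the table of CD11c-DTR recipients, the same medians were 0.29, 0.18, 0.19, 0.19 and 0.36. Among the other 40 pan-leukocyte genes, 17 were lower and 2 higher in CX3CR1-DTR colon than in colon day 12, where 35.5% of all genes tested were lower. Not all genes followed this order: among the general actin genes Actg1 (52.6% GC) was at -3.78, Cap1 (50.7%) at -3.11 and Tmsb4x (47.5%) at 1.54. Of the paralogs, Vav3 (45.9% GC) and Pls3 (43.7%) were at or under the floor in the 6 libraries, at least 5.51-fold and 12.6-fold lower than in colon day 12, while Pls1 (42.7%) was not called at 0.15 ± 0.45. The part of base composition in the values of the 10 genes was not tested, and recipient, day of harvest and table cannot be told apart here.

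**Figure D4:**
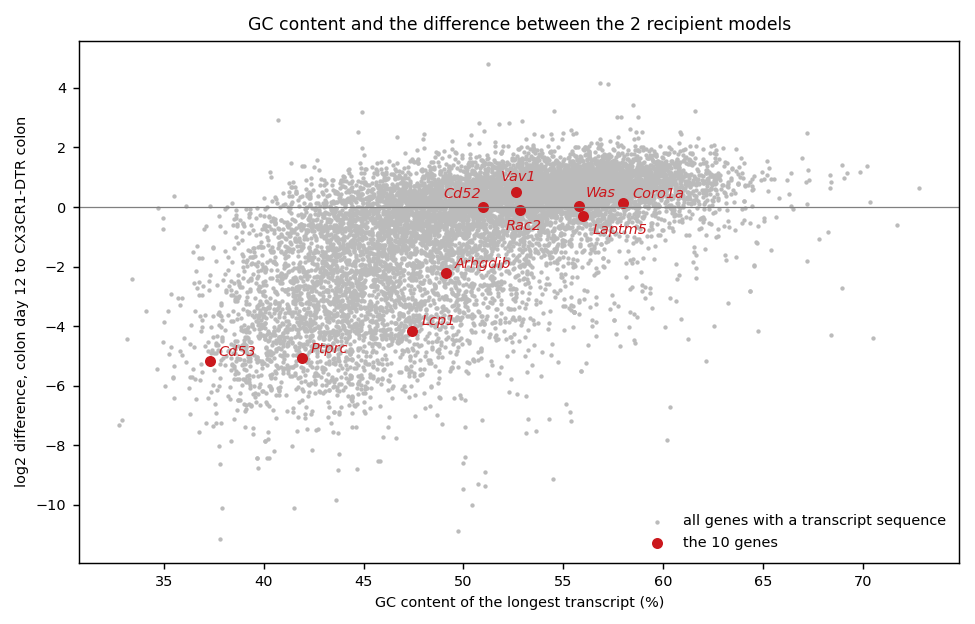
Log2 fold change from CD11c-DTR colon day 12 to CX3CR1-DTR colon (vertical axis) against the GC content of the longest reference transcript (horizontal axis, percent), with all genes that have a sequence in grey and the 10 genes in red. The 4 genes with a GC content of 49.1% or less lie at -2.22 to -5.18 and the 6 with 51.0% or more between -0.31 and 0.52.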

How the data were processed

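RNA of sorted monocytes and macrophages was sequenced in bulk from the 3′ ends of polyadenylated transcripts, in a variant of MARS-seq. As described by the authors, reads were aligned to mm9 with HISAT (version 0.1.6 in the submitters' processing notes), and per the file headers sense-strand reads over exons were counted by the authors in HOMER, 1 transcript per gene. The deposited values are raw counts, not normalized and not pooled. A collapse of molecular identifiers is not given in the sources used here, so limits of counting leave out amplification. In the table of CX3CR1-DTR recipients 52 columns without a name were not used. Between 47.1 and 70.5% of mapped reads fell on genes in CD11c-DTR libraries, and the 51 pairs of libraries within groups were checked for duplicates (smallest chi-square per degree of freedom 5.21).

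Counts were divided by the reads on genes and multiplied by 10000000 (normalized reads), and genes that reached 50 normalized reads in 3 or more libraries were kept. edgeR 4.0.16 in R 4.3.3 (TMM, quasi-likelihood test, Benjamini-Hochberg over all genes tested, threshold 0.05) was fitted to 25 CD11c-DTR libraries in 7 groups (12869 genes), and to graft, colon day 12 and CX3CR1-DTR colon (13 libraries, 11751 of the 24148 genes in both tables). The SE was taken from the log2 fold change and the root of its F statistic. DESeq2 1.42.0, limma 3.58.1 on log2(normalized reads + 50), other scalings, filters and samples and each library left out were alternatives. The steps were tested on simulated data. Colon day 8 replicate 1 was left out because the study lists 3 repeats of that group, whose numbering matches the other 3 titles (the names carry no date). Its list of 4 repeats for CX3CR1-DTR recipients could not be matched to titles, so all 6 libraries were used.

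Replicates are numbered in accession order. Whether they came from separate animals is not given in the sources used here, and p-values measure the spread between these samples. Dates in the titles give experiments 1 to 3, the same transfer date marking a shared experiment, and this was the block. The date of ileum day 8 replicate 2 was read as a slip of the year. Deviations from the group means correlated with a median r of 0.02 over 96 pairs of libraries of the same experiment and -0.01 over 171 pairs of different experiments. The 10 genes, the marker lists and the tests were chosen with earlier results of these data known. Named beside the 10 genes were all paralogs and general actin genes listed. Of the other pan-leukocyte genes, the 3 lowest and 3 highest from graft to colon day 4 were named too. So were the 5 genes of highest correlation. Start regions are from RefSeq (GRCm38.p6), and GC content is that of the longest protein-coding GENCODE M1 transcript (mm9) of a gene.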

Additional observations from a re-analysis of the deposited data

Results flagged for a closer look

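Of 66 sets of 4 or 6 libraries (a gene or the sum of the 10 genes in a group), 13 held a library far from the others by Dixon's test at its 95% level. All 13 were the highest of their group. For a single set chance gives about 1 in 20. The sets share libraries and the 10 genes varied together, so the 13 cannot be read against that share. Colon day 8 replicate 1, the library left out of the tests, had 719.5 normalized reads of Was (others 53.5 to 157.2), 3721 of Ptprc (others 258 to 633.9), 989.4 of Cd53 (others 82.8 to 204.3) and 1405 of Vav1 (others 169.6 to 309.1).

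Ileum day 12 replicate 1 had 3445 normalized reads of Arhgdib (others 1278 to 1416) and 5058 of Ptprc (others 1704 to 2031), and its sum over the 10 genes was 55528 (others 18705 to 23898). Colon day 12 replicate 2 had 1639 of Ptprc (others 255 to 427.4) and a sum of 11787 (others 3508 to 4223).

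In CX3CR1-DTR colon, replicate 1 had 2116 of Laptm5 (others 814.6 to 1202), 2313 of Cd52 (others 646.2 to 1097), 621 of Vav1 (others 270.3 to 341.3) and a sum of 7093 (others 2366 to 3536). The 4 genes that were low in that group were not among its flagged values.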

How the results depend on the processing

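From the graft to colon day 4, to CX3CR1-DTR colon and from ileum to colon day 12, all values of the 10 genes kept their direction and call under every alternative run. The count from ileum to colon day 4, 4 as reported, was 9 with DESeq2, 7 with the replicate block, 1 with totals of mapped reads, 0 with only the groups compared, 0 with all 4 colon day 8 libraries, 0 with ileum day 4 of experiment 1 alone and 10 with experiment 2 alone, and it ran from 0 to 9 with single libraries left out. At day 8 it was 0 with all 4 colon day 8 libraries and 5 to 10 with single libraries left out. With ileum day 4 of experiment 1 alone, 2 genes were called from ileum day 4 to day 8 and 1 in the test of segment by day, against 0 as reported. The difference of the summed level from graft to colon day 8 was -4.52 on the log2 scale and -3.32 with all 4 libraries. The replicate block changed the calls named in the report and no other call of the 10 genes, and no block could be fitted for CX3CR1-DTR colon, whose titles give no experiment. The cause of these changes was not tested.

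Totals of mapped reads in place of TMM moved the median of all genes from graft to colon day 4 from 0.26 to -0.06, and the median of the 10 genes relative to it was -4.57 and -4.60 (-4.31 and -4.66 on the 2 scales). Directions turned only for genes that were not called. For Cd53, graft to ileum day 4, the value ran from -0.73 to 0.29 with single libraries left out, with 0.29 without graft replicate 1, and was 0.19 with experiment 2 alone, and for day 12 it was -0.12 with mapped totals. Was was 0.29 from ileum to colon with day 4 of experiment 1 alone. From colon day 12 to CX3CR1-DTR colon, with single libraries left out, Was ran from -0.17 to 0.41, Coro1a from -0.17 to 0.67, Laptm5 from -0.52 to 0.13, Cd52 from -0.28 to 0.80 and Rac2 from -0.23 to 0.30. Cd52 was -0.00 without a filter and Rac2 0.01 with only the groups compared.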
